A study of Mus musculus with 16 samples.

Results

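The comparison described here is that of wild-type mouse lung after 3 days of hyperoxia with wild-type lung kept in normoxia. It was taken from the sample titles: 4 arrays carry the wild-type hyperoxia title and 4 the wild-type normoxia title, 8 of the 16 arrays of the series. All pups were studied at postnatal day 3. The hyperoxia pups breathed 85% oxygen in a chamber from postnatal day 0 to day 3, and all mice had free access to food and water. The other 8 arrays hold the same oxygen conditions in pups labelled Fgf10+/-, a genotype with a single working copy of a growth factor gene of lung mesenchyme. Total RNA of lung homogenates was labelled with Cy3 and hybridised to a one-colour Agilent microarray with 1 array per sample. The labels do not name the strain, the litters or the hour of collection, and they do not say whether a sample is 1 pup or a pool. The p-values therefore measure only the spread between these samples, which may in part be technical.

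The mouse lung is born with wide saccules, and secondary septa divide them into alveoli in the days after birth while epithelium, fibroblasts and capillaries proliferate. High oxygen at this age raises reactive oxygen species in the tissue, and newborn rodents kept in it are a model of bronchopulmonary dysplasia, the chronic lung disease of preterm infants. Cells meet oxidants with enzymes that remove peroxides and superoxide, many of them under the transcription factor NRF2, while DNA damage engages p53, which halts the cell cycle through Cdkn1a. Many cell division genes are switched off together by the DREAM repressor complex, which acts at CHR and E2F sites in their promoters, while the CCAAT boxes of such promoters are bound by the activator NF-Y.

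Promoters of some cell division genes that fell are shown first, since they hold both kinds of letters, which most of the genes that fell do not hold together. The CHR element was searched as TTTGAA and the CCAAT box as CCAAT, on both strands, in the 300 bases that RefSeq (assembly GRCm38.p6) gives around each gene's start, 250 before it and 50 after. The first 6 promoters are those of a cyclin of mitosis (Ccnb2), the centromeric histone (Cenpa), a mitotic entry factor (Cdca3), a spindle checkpoint kinase (Bub1b) and 2 motor proteins of the spindle (Kif23, Kif11), with both motifs in capitals. They are followed by the promoter of a glutathione transferase that rose (Gsta3), with the core of the antioxidant response element, TGACNNNGC, in capitals. Each runs 5′ to 3′ on the strand of its gene.
Ccnb2 (chr9:70421505-70421804, minus strand): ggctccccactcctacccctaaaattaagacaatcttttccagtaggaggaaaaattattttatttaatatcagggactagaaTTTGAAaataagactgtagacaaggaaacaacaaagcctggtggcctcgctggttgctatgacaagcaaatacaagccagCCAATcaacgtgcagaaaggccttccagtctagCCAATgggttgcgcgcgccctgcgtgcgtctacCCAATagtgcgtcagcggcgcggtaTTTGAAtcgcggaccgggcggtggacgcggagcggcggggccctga
Cenpa (chr5:30666636-30666935, plus strand): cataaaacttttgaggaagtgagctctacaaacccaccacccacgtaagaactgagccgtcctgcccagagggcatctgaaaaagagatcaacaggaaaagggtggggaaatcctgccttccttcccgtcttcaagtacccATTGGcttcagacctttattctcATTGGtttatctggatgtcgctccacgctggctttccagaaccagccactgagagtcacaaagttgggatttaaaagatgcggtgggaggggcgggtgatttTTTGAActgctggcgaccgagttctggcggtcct
Cdca3 (chr6:124829926-124830225, plus strand): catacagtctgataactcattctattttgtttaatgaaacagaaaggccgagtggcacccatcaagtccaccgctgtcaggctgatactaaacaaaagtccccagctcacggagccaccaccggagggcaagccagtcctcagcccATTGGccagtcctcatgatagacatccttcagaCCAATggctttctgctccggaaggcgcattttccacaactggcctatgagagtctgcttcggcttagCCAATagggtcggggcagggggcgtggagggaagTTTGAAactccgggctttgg
Bub1b (chr2:118597961-118598260, plus strand): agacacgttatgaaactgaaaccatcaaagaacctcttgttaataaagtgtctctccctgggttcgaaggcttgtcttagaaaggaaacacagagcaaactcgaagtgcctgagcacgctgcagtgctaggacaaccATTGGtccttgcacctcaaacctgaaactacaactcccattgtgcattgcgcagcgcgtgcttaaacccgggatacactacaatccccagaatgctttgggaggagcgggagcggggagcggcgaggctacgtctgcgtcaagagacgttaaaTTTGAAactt
Kif23 (chr9:61946750-61947049, minus strand): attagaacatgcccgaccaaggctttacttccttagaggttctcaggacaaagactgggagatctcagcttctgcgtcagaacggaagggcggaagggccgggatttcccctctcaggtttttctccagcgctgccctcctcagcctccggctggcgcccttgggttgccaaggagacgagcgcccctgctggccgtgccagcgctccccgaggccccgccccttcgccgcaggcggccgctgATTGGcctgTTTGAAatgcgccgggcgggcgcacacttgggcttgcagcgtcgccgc
Kif11 (chr19:37376132-37376431, plus strand): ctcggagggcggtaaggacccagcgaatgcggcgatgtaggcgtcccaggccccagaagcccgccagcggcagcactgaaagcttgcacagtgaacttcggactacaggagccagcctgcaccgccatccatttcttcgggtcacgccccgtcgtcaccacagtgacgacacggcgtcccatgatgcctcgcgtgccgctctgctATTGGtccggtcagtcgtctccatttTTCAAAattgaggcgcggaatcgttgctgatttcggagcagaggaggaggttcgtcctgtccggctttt
Gsta3 (chr1:21240335-21240634, plus strand): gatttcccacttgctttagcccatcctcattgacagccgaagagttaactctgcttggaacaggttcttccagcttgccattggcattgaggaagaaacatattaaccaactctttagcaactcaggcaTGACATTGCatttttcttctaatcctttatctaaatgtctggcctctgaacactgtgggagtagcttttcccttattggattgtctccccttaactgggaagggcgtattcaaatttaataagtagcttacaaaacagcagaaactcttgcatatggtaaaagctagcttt

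Values are log2 intensities, so a difference of 1 is a doubling. Each difference is hyperoxia minus normoxia with its standard error (SE) from a limma fit to all 16 arrays, with n = 4 arrays per group. "Rose" and "fell" are used of genes with a Benjamini-Hochberg adjusted p under 0.05 over 20173 genes. The median of all array features lay at 4.50, and values below it carry little signal. For Acaca, Acot3, Car4, Col8a2, Cp, Dcaf12l2, Fzd5, Gapdh, Igf1, Kng1, Nasp, Notch1, Notch2, Pla2g1b and Steap2, named below, another array feature of the gene pointed the other way without being called, so their direction is uncertain. Replicate wild-type arrays correlated with r between 0.975 and 0.983.

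1 normoxia array stood apart. In replicate 4, the mean level of cartilage genes was 8.27, against 5.08 to 5.22 in the other 3 normoxia arrays and 4.56 to 5.16 in hyperoxia. Skeletal muscle genes stood at 7.78 there, against 4.96 to 5.13 in the other normoxia arrays, and fat genes at 5.80 against 4.49 to 4.68. The cartilage collagen Col2a1, chosen after its value was seen, read 4.47, 6.04, 3.29 and 14.23 in normoxia replicates 1 to 4 and 3.47, 4.202, 3.51 and 4.29 in hyperoxia. Cardiac muscle genes were higher in every normoxia array (7.95 to 8.25) than in any hyperoxia array (7.80 to 7.85). Genes of oesophagus and skin ran the other way, 4.81 to 5.02 in normoxia and 5.08 to 5.49 in hyperoxia. The part of these tissues in the results was not tested, and counts of the matrix and muscle lists are given with and without normoxia replicate 4. Liver genes lay near the array median in all 8 arrays (4.26 to 4.63).

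**Figure D1:**
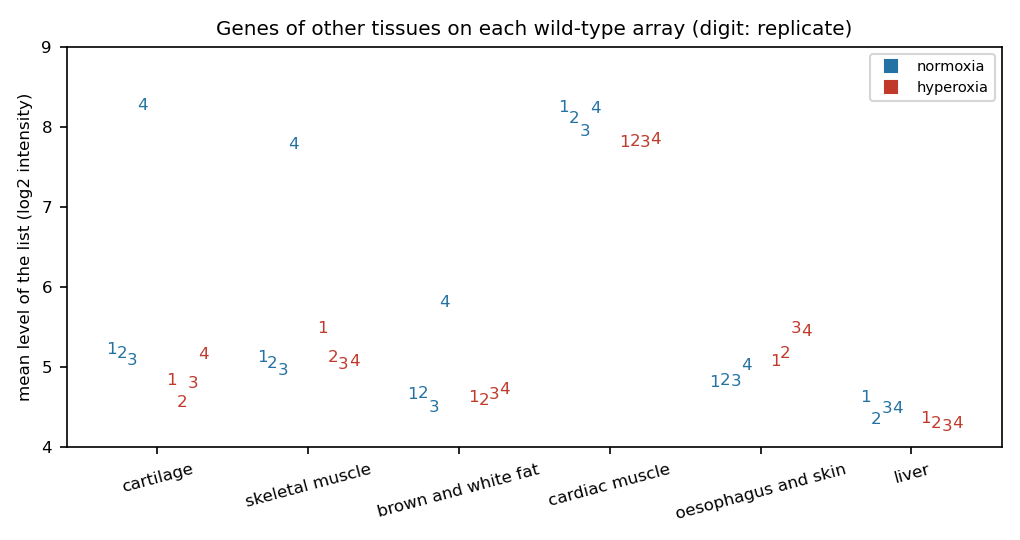
Mean log2 level of genes of 6 other tissues on each wild-type array, with the replicate number as the plotting symbol, normoxia in blue and hyperoxia in red. Normoxia replicate 4 stands at 8.27 for cartilage and 7.78 for skeletal muscle, above the other 7 arrays.

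Many genes differed between hyperoxia and normoxia in wild-type lung. By limma, 2082 genes rose, 10.3% of those tested, and 1764 fell, 8.74%, together 19.1%. Of those that rose, 329 did so at least 2-fold and 16 at least 4-fold. Of those that fell, 382 fell at least 2-fold and 40 at least 4-fold. The median over all tested genes was 0.03, the level against which the lists below are read. Calls depended on signal: 1.80% of genes passed in the lowest of 4 equal level groups and 33.2% in the highest. Shares over all genes are therefore a low background for lists of bright genes. The 4 hyperoxia arrays lay wholly above or below the 4 normoxia arrays for 24.8% of genes.

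**Figure D2:**
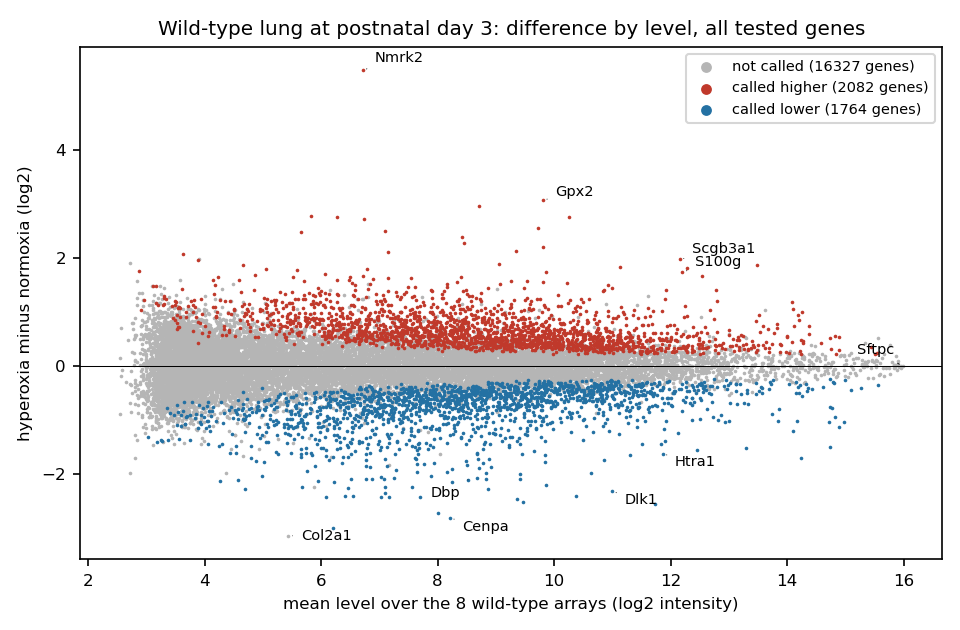
Difference between hyperoxia and normoxia (log2) against the mean level over the 8 wild-type arrays for 20173 genes, with genes called higher in red, called lower in blue and others in grey. Calls are sparse at low levels, Nmrk2 and Gpx2 stand at the top, and Col2a1, which was not called, lies lowest.

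The antioxidant enzyme Gpx2, a selenium-dependent glutathione peroxidase of epithelium, gave 8.43, 8.02, 8.47 and 8.16 in the 4 normoxia arrays and 11.41, 11.45, 11.45 and 11.08 in the 4 hyperoxia arrays. The groups lay far apart, with a difference of 3.08 ± 0.16 (limma adjusted p = 3.12e-07). Cdkn1a, the p53-induced brake on cyclin-dependent kinases, read 8.26, 7.98, 8.15 and 7.998 in normoxia and 10.09, 9.97, 9.84 and 10.09 in hyperoxia, a difference of 1.904 ± 0.13. All 12 of its array features were higher in hyperoxia on average, by 0.80 to 2.16. Nmrk2, a kinase that makes NAD from nicotinamide riboside, read 5.23, 3.77, 4.54 and 2.34 in normoxia, where 2 of 4 arrays were under the array median, and 9.76, 8.96, 9.78 and 9.31 in hyperoxia. The exact two-sided permutation p was 0.0286 for each of these 3 genes, the smallest that 4 against 4 arrays allow, and for the other genes below whose 8 values are printed and do not overlap. Every gene without overlap gives this p, and 24.8% of tested genes had none. For genes named by the rank below, lack of overlap was a condition of being named. The permutation p therefore adds no support for them.

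Below the 10 largest rises came genes of detoxification, airway secretion and immune signalling. The 11th to 25th were Gdpd2 (2.13 ± 0.28), a glycerophosphodiester phosphodiesterase, the fatty acid binding protein Fabp12 (2.12 ± 0.18), the secretoglobin Scgb3a1 (1.98 ± 0.32), Cdkn1a and the retinaldehyde dehydrogenase Aldh1a1 (1.87 ± 0.13). Then came the glutathione transferases Gsta3 (1.83 ± 0.14), Gsto1 (1.81 ± 0.16) and Gsta2 (1.68 ± 0.17), the lipid transfer protein Esyt3 (1.796 ± 0.21) and the chemokine Ccl17 (1.78 ± 0.24). S100g (1.75 ± 0.17), a calcium-binding protein, the macrophage scavenger receptor Marco (1.75 ± 0.28), the protease Asprv1 (1.71 ± 0.37), the stress regulator Nupr1 (1.67 ± 0.14) and the chemokine receptor Ccr6 (1.66 ± 0.18) completed the rank. Gsta1, Gsta2 and other class alpha transferases are near-identical copies, so their probes may share signal and each value is uncertain.

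The corresponding falls were mostly of cell division. Birc5 (-2.41 ± 0.22), a subunit of the chromosomal passenger complex, was followed by Ckap2 (-2.402 ± 0.21), Bub1b (-2.398 ± 0.17), the mitotic kinase Pbk (-2.35 ± 0.18) and the spindle midzone protein Prc1 (-2.26 ± 0.22). Ska1 (-2.26 ± 0.26), Spag5 (-2.24 ± 0.24), Pimreg (-2.23 ± 0.27), Spc25 (-2.19 ± 0.25) and Cenpe (-2.14 ± 0.29) also belong to chromosome segregation. The other 5 were the imprinted growth gene Dlk1 (-2.32 ± 0.24), the MYC antagonist family member Mxd3 (-2.23 ± 0.27), the mesothelial uroplakin Upk3b (-2.14 ± 0.63), the potassium channel subunit Kcne1l (-2.13 ± 0.26) and the clock output gene Dbp (-2.104 ± 0.34). Upk3b was not called without hyperoxia replicate 1 or 2 or normoxia replicate 2 or 4, and without normoxia replicate 4 it stood at -1.95 (adjusted p = 0.0751).

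Among abundant transcripts, those in the top 5% of tested genes by level, 312 of 1009 were called. Besides Scgb3a1, Aldh1a1, Gsto1, S100g and Nupr1, the 8 largest rises held the microsomal epoxide hydrolase Ephx1 (1.42 ± 0.12), the chitinase-like protein Chil1 (1.41 ± 0.26) and the lysosomal glycoprotein Creg1 (1.24 ± 0.10). The 8 largest falls were led by histone H2ac22 (-1.69 ± 0.19), the secreted protease Htra1 (-1.62 ± 0.26), the nucleosome-binding protein Hmgn2 (-1.55 ± 0.15) and Dcaf12l2 (-1.51 ± 0.22). H2ac11 (-1.49 ± 0.20), Nrep (-1.45 ± 0.14), H4c4 (-1.38 ± 0.15) and the eosinophil-associated ribonuclease Ear2 (-1.24 ± 0.15) followed. Htra1, which cleaves matrix proteins and insulin-like growth factor binding proteins, gave 12.27, 12.93, 12.38 and 13.11 in normoxia and 11.07, 10.84, 10.72 and 11.57 in hyperoxia, with no overlap.

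**Figure D3:**
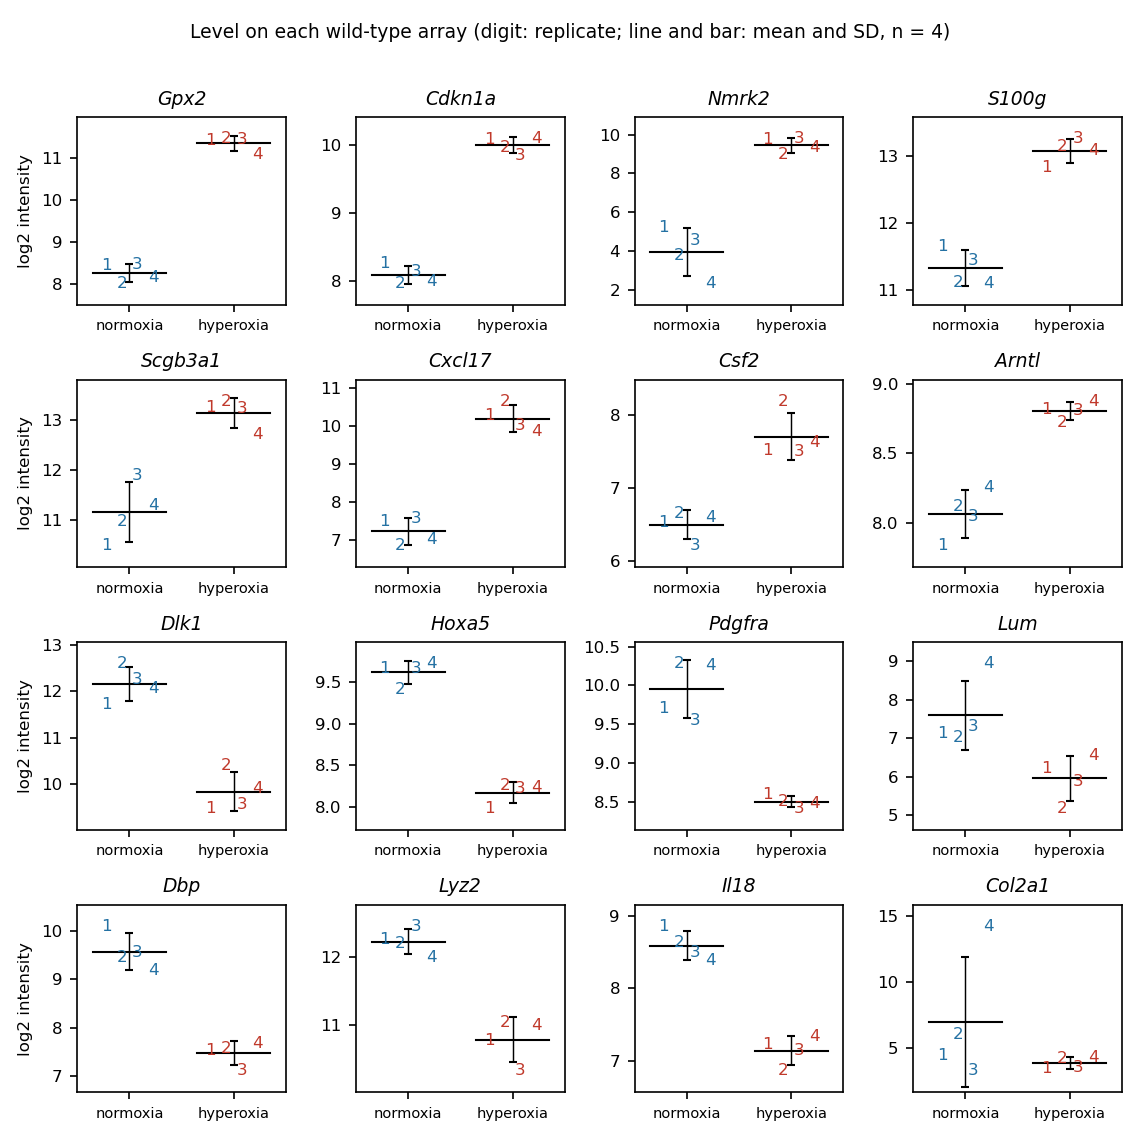
Log2 intensity of 16 genes on each wild-type array, with the replicate number as the symbol, normoxia in blue and hyperoxia in red, and the mean and SD of 4 arrays in black. The groups are separate for every gene shown except Col2a1, whose normoxia replicate 4 reads 14.23.

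Redox enzymes did not rise as a block but by member. Of 6 glutathione peroxidases, 3 rose: Gpx2, the cytosolic Gpx1 (0.96 ± 0.21) and Gpx4 (0.54 ± 0.09), which repairs lipid peroxides. Gpx7, an enzyme of the endoplasmic reticulum, fell (-0.68 ± 0.14). Gpx3, the secreted form, chosen after its value was seen, stood at 0.70 ± 0.26 and did not pass. Among 21 superoxide dismutases, peroxiredoxins, thioredoxins and relatives, 9 rose and 4 fell, with a median of 0.31. Prdx6, the peroxiredoxin of surfactant-making cells that also reduces phospholipid peroxides, read 13.53, 13.34, 13.42 and 13.43 in normoxia and 14.12, 14.23, 14.36 and 14.14 in hyperoxia (0.78 ± 0.10). Sulfiredoxin Srxn1 (1.21 ± 0.21), which reactivates oxidised peroxiredoxins, the cytosolic Sod1 (0.42 ± 0.08) and mitochondrial Txn2 (0.52 ± 0.09) rose too. The peroxiredoxin of the secretory pathway, Prdx4 (-0.89 ± 0.12), and the cytosolic Prdx2 (-0.46 ± 0.10) fell. Extracellular Sod3, a defining lung enzyme chosen after its value was seen, stood at 0.02 ± 0.13.

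Genes of glutathione use and detoxification that passed were nearly all higher. Of 30 genes of glutathione transfer and synthesis, 13 rose and 1 fell (median 0.43). They included Gclc (1.41 ± 0.13), the catalytic subunit that limits glutathione synthesis, and transferase Gstt3 (0.74 ± 0.09). Of 24 NRF2-linked detoxification and export genes, 13 rose and 1 fell (median 0.50), led by Ephx1, the aldehyde dehydrogenase Aldh3a1 (2.396 ± 0.22), the aldehyde oxidase Aox1 (1.64 ± 0.15), the exporter Abcc3 (1.36 ± 0.17) and the quinone reductase Nqo1 (1.25 ± 0.18). Of 26 cytochrome P450 genes of families 1 to 4 and their electron donors, 8 rose and 0 fell, with Cyp2b10 (1.25 ± 0.19), the club cell enzyme Cyp2f2 (0.54 ± 0.10) and Cyp2s1 (0.74 ± 0.14) among them. Over the whole Cyp family by symbol, 6 rose and 2 fell of 88 (median 0.04), a lower share of rises than the 10.3% of all genes. Of these 88, 53 had a normoxia mean under the array median, against 6258 of all 20173 genes. Dim genes are rarely called, so the low share is not read as a trait of the family. Cyp1a1, the classic target of the aryl hydrocarbon receptor, chosen after its value was seen, stood at 0.51 ± 0.41 and did not pass. Hmox1, heme oxygenase, chosen in the same way, stood at 0.80 ± 0.66 and its arrays overlapped.

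Genes of NAD metabolism besides Nmrk2 went both ways. Of 23 measured, 5 rose and 2 fell (median 0.11). The deacylases Sirt6 (0.73 ± 0.09) and Sirt2 (0.64 ± 0.10) rose, and the DNA repair polymerase Parp2 fell (-0.95 ± 0.19). Iron genes that passed were mostly higher. The ferritin chains Fth1 (0.57 ± 0.11) and Ftl1 (0.35 ± 0.08), which store iron, the ferroxidase Cp (1.03 ± 0.21) and the ferrireductases Steap1 (0.79 ± 0.19) and Steap2 (0.60 ± 0.13) rose, whereas the membrane ferroxidase Heph fell (-1.04 ± 0.16). In all, 6 of 22 iron genes rose and 1 fell, beside 10.3% and 8.74% of all genes. NAD gene rises numbered 3 without hyperoxia replicate 1, 3 or 4 or normoxia replicate 1, 2, 3 or 4.

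Among p53 targets and genes of the integrated stress and unfolded protein responses, all those that passed were higher. Heat-shock and cold-induced genes went both ways, with 6 rises and 3 falls in 34. Of 31 p53 targets, 14 rose and 0 fell (median 0.33). After Cdkn1a these were led by cyclin G Ccng1 (1.14 ± 0.12), the nuclease Aen (0.93 ± 0.10), the death gene Bbc3 (1.03 ± 0.12) and the translesion polymerase Polk (0.90 ± 0.12). Bbc3, known as PUMA, gave 8.998, 9.13, 8.96 and 8.59 in normoxia and 9.86, 9.85, 10.098 and 9.99 in hyperoxia, with a gap between the groups. The wider set of 38 cell death genes held 4 rises and 1 fall, and none of 8 caspase genes passed by limma (0 at an adjusted p under 0.05, and 2 at an unadjusted p under 0.05). Of 38 genes of the integrated stress and unfolded protein responses, 10 rose and 0 fell (median 0.28). They were Nupr1, asparagine synthetase Asns (1.16 ± 0.16), the transcription factor Atf5 (0.90 ± 0.14), the amino acid transporter subunit Slc3a2 (0.50 ± 0.10) and the cysteine-making Cbs (0.85 ± 0.17) among others. The chaperone Hspa5 of the unfolded protein response, chosen after its value was seen, stood at 0.55 ± 0.22 and did not pass, but normoxia replicate 4 lay as high as the hyperoxia arrays, and without it the difference was 0.78 (adjusted p = 0.0123). Asns read 9.01, 8.53, 8.903 and 8.27 in normoxia and 9.91, 9.87, 9.94 and 9.63 in hyperoxia. Cell death gene rises numbered 2 without hyperoxia replicate 3.

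Cell division lists held many falls and few rises. Of 13 kinesins that act in mitosis, 11 fell and 0 rose (median -1.64), among them Kif20a (-2.42 ± 0.23), Kif23 (-1.85 ± 0.20), Kif11 (-1.64 ± 0.18), Kifc1 (-2.05 ± 0.26) and Kif22 (-1.82 ± 0.23). Of 27 other kinesins, 4 rose and 2 fell (median 0.06). Those that rose included Kif9 (0.92 ± 0.22), a motor of cilia, and Kif3a (0.41 ± 0.11) of ciliary transport. Of 41 kinetochore and checkpoint genes, 28 fell and 1 rose (median -1.51), with Cenpp (-2.097 ± 0.11), Spc24 (-2.42 ± 0.17) and Mad2l1 (-1.900 ± 0.14) of smallest p beside Bub1b and Cenpa (-2.81 ± 0.22). Of 51 replication genes, 36 fell and 0 rose (median -0.85). The flap nuclease Fen1 (-1.33 ± 0.12), topoisomerase Top2a (-2.41 ± 0.26), the clamp loader Rfc3 (-1.43 ± 0.16), thymidine kinase Tk1 (-1.88 ± 0.21) and Rrm2 (-2.08 ± 0.24) led them.

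Regulators around the cycle did not all point the same way. Of 24 cyclins, cyclin-dependent kinases and their switches, 12 fell and 2 rose, with Ccnb2 at -2.45 ± 0.18, Cks2 at -2.095 ± 0.20 and Ccna2 at -1.98 ± 0.23. The 8 measured inhibitors split evenly. Cdkn1a, Cdkn1c (0.61 ± 0.12) and Cdkn2b (0.56 ± 0.11) rose, while Cdkn3 (-1.69 ± 0.19), a phosphatase that peaks in mitosis, Cdkn2c (-1.403 ± 0.20) and Cdkn2d (-0.69 ± 0.12) fell. Of 24 regulators of the E2F and DREAM circuits, 11 fell and 3 rose. The falls held Mki67 (-1.97 ± 0.22), E2f8 (-1.502 ± 0.20), E2f7 (-1.25 ± 0.18) and Foxm1 (-1.38 ± 0.20). The pocket protein Rbl2, a subunit of the repressor form of DREAM, was among the 3 rises (0.85 ± 0.22).

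DNA repair genes were read as a pair of lists, whose difference was not tested. Of 30 genes of homologous recombination and crosslink repair, which act in and after DNA replication, 12 fell and 0 rose (median -0.37). Fanci (-1.63 ± 0.19), Bard1 (-1.44 ± 0.17) and Fanca (-1.26 ± 0.17) had the smallest p. Of 31 genes of other repair routes, 3 rose and 2 fell (median 0.06). Mgmt, which removes alkyl groups from guanine, rose (0.79 ± 0.18), and the glycosylase Neil3 fell (-1.85 ± 0.24). Other repair rises numbered 1 without hyperoxia replicate 3 or normoxia replicate 4.

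Chromatin supply fell in part. Of 41 replication-dependent histone genes, 19 fell and 4 rose (median -0.75), with H1f5 (-2.51 ± 0.21), H2ac10 (-1.03 ± 0.10) and H2ac12 (-1.12 ± 0.12) against H2ac18 (1.19 ± 0.13), H1f2 (1.45 ± 0.21) and H3c15 (1.605 ± 0.26). These genes are near-identical copies, so probes may share signal and single members are uncertain. Of 17 replacement histones and chaperones, 11 fell and 0 rose (median -0.66), among them the chaperones Asf1b (-1.54 ± 0.18), Nasp (-0.66 ± 0.09) and the variant Macroh2a2 (-0.82 ± 0.10). Tubulins, the building blocks of microtubules, showed 6 falls and 1 rise in 23 genes, led by Tubb4a (-1.605 ± 0.19) and Tuba1a (-0.79 ± 0.11).

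The promoter letters printed above were counted over the tested genes with a RefSeq promoter, 15962 of 20173. The CHR letters stood in 15.3% of all these promoters. They stood in 28.5% of 312 promoters of genes that fell at least 2-fold and in 18.03% of 244 of genes that rose as much. Over all called genes the share was 16.99% for falls, close to that of all promoters, and 11.95% for rises. CHR and CCAAT letters together stood in 6.27% of all promoters and in 20.2% of those of the 2-fold falls, and in 9.33% of those of all falls. Of 12 promoters of mitotic kinesins, 10 held the CHR letters, against 2 of 20 of other kinesins. In the 6 mitotic promoters shown, a CHR match began between 19 bases before and 41 bases after the gene's start. E2F letters, TTTCCCGC or TTTGGCGC, stood in 13 of 43 replication gene promoters and in 2.24% of all.

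The antioxidant response element core stood in 14.7% of promoters of genes that rose, 16.3% of those that fell and 13.6% of all, and in 5 of 25 glutathione gene promoters. Among changes of at least 2-fold it stood in 11.9% for rises and 17.6% for falls. In Gsta3 it began 121 bases before the start. The hypoxia core ACGTG stood in 24.4% of promoters of rising genes, 23.3% of falling genes and 21.7% of all, and at 2-fold or more in 13.5% for rises and 18.3% for falls. The xenobiotic core GCGTG stood in 47.7%, 49.5% and 40.9%, and at 2-fold or more in 30.7% for rises and 42.3% for falls. The 2 cores share letters where they overlap. These matches describe letters in a 300-base window and identify no binding.

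Imprinted and insulin-like growth factor genes went both ways. Dlk1, an imprinted NOTCH-like ligand, read 11.72, 12.58, 12.25 and 12.06 in normoxia and 9.48, 10.404, 9.55 and 9.903 in hyperoxia, with more than 1 log2 unit between the groups. Of 21 imprinted growth genes, 6 fell and 3 rose (median -0.28). Mest (-0.99 ± 0.10) and the adaptor Grb10 (-0.50 ± 0.13) fell with Dlk1, while the growth restrainer Cdkn1c rose. Of 22 genes of the insulin-like growth factor axis, 4 fell and 3 rose (median -0.16). The ligand Igf1 (-0.95 ± 0.12) and the binding protein Igfbp4 (-1.04 ± 0.26) fell and Igfbp3 (0.89 ± 0.19) rose. The mRNA-binding protein Igf2bp2 also rose (0.62 ± 0.14). Imprinted gene rises numbered 1 without normoxia replicate 4.

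Patterning genes of lung mesenchyme fell more often than they rose. Of 34 Hox and Tbx genes, 11 fell and 1 rose. Hoxa5, a positional factor of lung mesenchyme, gave 9.67, 9.41, 9.66 and 9.71 in normoxia and 7.99, 8.26, 8.22 and 8.23 in hyperoxia, and the groups did not overlap. Hoxa7 (-1.97 ± 0.17), Hoxb3 (-0.94 ± 0.14), Hoxb5 (-0.75 ± 0.11) and Hoxb2 (-0.87 ± 0.14) fell with it, while Tbx1 rose (0.77 ± 0.16). Without normoxia replicate 4, 10 fell and 2 rose. Axon guidance families, which also steer vessels and epithelial buds, held 11 falls and 4 rises in 60 genes. The receptors Robo2 (-1.17 ± 0.14) and Robo1 (-0.95 ± 0.17) and their ligand Slit2 (-1.01 ± 0.20) fell together, as did the ephrin Efnb3 (-1.12 ± 0.19).

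Hedgehog signalling, which maintains lung mesenchyme, held 5 falls and 1 rise in 18 genes. The transducer Smo (-0.73 ± 0.10), the transcription factor Gli3 (-0.66 ± 0.11), the co-receptor Boc (-0.50 ± 0.10) and the mesenchymal factor Foxf2 (-0.60 ± 0.14) fell. Of 48 WNT genes, 2 rose and 3 fell. The receptor Fzd5 rose (1.33 ± 0.32) and Fzd1 fell (-0.52 ± 0.12). Of 23 NOTCH genes, 4 fell, among them the transcription factor Rbpj (-0.82 ± 0.16) and the receptor Notch2 (-0.50 ± 0.11). The single rise was that of Notch1 (0.98 ± 0.19), one of the genes of uncertain direction. WNT falls numbered 1 without hyperoxia replicate 1 or 4 or normoxia replicate 1 or 3. NOTCH falls numbered 2 without hyperoxia replicate 3 or normoxia replicate 2.

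In the TGF-beta and BMP families 12 genes fell and 6 rose of 45. The receptors diverged: Bmpr1a, the main type I receptor for BMP4, fell (-0.51 ± 0.11), while Bmpr2 (0.91 ± 0.18) and Bmpr1b (0.81 ± 0.15) rose. The follistatin-like antagonist Fstl1 (-0.70 ± 0.10) and the transducer Smad9 (-0.81 ± 0.17) fell, whereas the stress ligand Gdf15 (1.37 ± 0.22) and the activin antagonist Fst (1.24 ± 0.29) rose. Fgf10 itself, the ligand whose gene is altered in the group labelled Fgf10+/-, stood at 0.06 ± 0.20 (adjusted p = 0.897), with 7.83, 8.14, 7.24 and 7.97 in normoxia and 7.64, 7.800, 7.901 and 8.07 in hyperoxia. TGF-beta and BMP falls numbered 7 without hyperoxia replicate 2 or normoxia replicate 4.

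Fibroblast and matrix genes fell more often than they rose. In bulk tissue, fewer cells of a type and less RNA per cell cannot be told apart, here and for every cell type below. Pdgfra, the receptor of the fibroblasts that become alveolar myofibroblasts, read 9.71, 10.28, 9.55 and 10.26 in normoxia and 8.59, 8.51, 8.42 and 8.48 in hyperoxia (-1.45 ± 0.19), and 10 features gave -1.65 to -1.41. The contractile markers Acta2 (-0.15 ± 0.10) and Tagln (0.21 ± 0.12) did not pass. Of 22 myofibroblast and smooth muscle genes, 9 fell and 1 rose, and 6 fell and 1 rose without normoxia replicate 4. Myocd (-0.94 ± 0.15), the coactivator of smooth muscle genes, and the myosin kinase Mylk (-0.75 ± 0.17) were among the falls. Myofibroblast and smooth muscle falls numbered 5 without normoxia replicate 2.

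Of 41 laminins, proteoglycans and other matrix genes, 15 fell and 1 rose (median -0.32). Without normoxia replicate 4 these were 13 and 1 (median -0.17). Periostin Postn (-1.06 ± 0.11), the proteoglycan Bgn (-1.53 ± 0.18) and the basement membrane genes Nid2 (-0.81 ± 0.14) and Lama4 (-0.65 ± 0.11) had small p. Lumican, the proteoglycan Lum, chosen to show that array, read 7.12, 7.01, 7.31 and 8.93 in normoxia and 6.22, 5.18, 5.89 and 6.55 in hyperoxia. Its difference was -1.63 ± 0.41, and -1.19 without normoxia replicate 4 (adjusted p = 0.0228).

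Calls of collagens depended on single arrays. Of 37 fibrillar and network collagen genes, 6 fell and 3 rose, and 2 fell and 2 rose without normoxia replicate 4. Col5a2 (-0.81 ± 0.14) and Col5a1 (-0.56 ± 0.14), which seed fibrils, kept their calls without it, at -0.79 and -0.51. The basement membrane collagen Col4a4 (0.58 ± 0.15) and Col8a2 (1.08 ± 0.24) rose. Of 21 elastic fibre genes, 7 fell, or 6 without normoxia replicate 4, with Efemp2 (-0.73 ± 0.11), Mfap2 (-0.58 ± 0.11) and Fbln5 (-0.59 ± 0.12). Elastin itself, Eln, rose, from 9.06, 8.99, 8.93 and 9.55 in normoxia to 10.15, 10.38, 11.08 and 9.89 in hyperoxia (1.25 ± 0.27), the only rise in that list. Collagen falls numbered 2 to 3 without hyperoxia replicate 1 or 2 or normoxia replicate 2 or 4.

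Of 37 matrix proteases and inhibitors, 5 fell, among them Mmp2 (-0.47 ± 0.11), Mmp14 (-0.55 ± 0.13) and Adamts4 (-1.13 ± 0.18), and the inhibitor Timp4 was the 1 rise (1.12 ± 0.24). Without normoxia replicate 4 these counts were 5 and 2. Of 17 collagen-modifying genes, 5 fell and 0 rose, led by the prolyl hydroxylase P3h3 (-1.49 ± 0.11), and 4 fell without normoxia replicate 4. Of 25 lipofibroblast genes, 1 rose and 5 fell, and of 15 pericyte genes 2 rose and 4 fell. Their defining members Tcf21 (0.15 ± 0.15), Plin2 (0.47 ± 0.16), Pdgfrb (0.11 ± 0.15) and Cspg4 (-0.02 ± 0.14) did not pass. Lipofibroblast falls numbered 2 to 3 without hyperoxia replicate 1, 2 or 3 or normoxia replicate 2, 3 or 4.

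Most endothelial genes did not pass, which also holds for all tested genes, of which 19.1% passed. That share includes dim genes, and it was 30.5% and 33.2% in the 2 highest of 4 level groups. Of 25 general endothelial genes, 1 rose and 3 fell (median 0.05), and 0 had a normoxia mean under the array median. The 19.1% is therefore no matched background for them. Pecam1, an adhesion molecule of all endothelium, read 8.67, 8.92, 8.41 and 8.61 in normoxia and 7.37, 7.64, 7.83 and 7.901 in hyperoxia (-0.97 ± 0.14). Cdh5, the endothelial cadherin, fell by a small margin (-0.28 ± 0.09) and was not called without hyperoxia replicate 2 or 4 or normoxia replicate 2 or 4 (adjusted p up to 0.111). Of 22 VEGF and angiopoietin genes, 6 fell and 1 rose. The co-receptor Nrp1 (-1.14 ± 0.16) and the ligand Angpt1 (-0.71 ± 0.13) were the falls of smallest p. Vegfa, the principal ligand, chosen after its value was seen, stood at 0.12 ± 0.10 and its receptor Kdr, chosen likewise, at 0.17 ± 0.11. The aerocyte marker Car4, which is also made by alveolar macrophages, rose (0.67 ± 0.12), while the aerocyte receptor Ednrb stood at -0.29 ± 0.14. General endothelial falls numbered 1 without hyperoxia replicate 2 or 4 or normoxia replicate 2 or 4. VEGF and angiopoietin falls numbered 2 without hyperoxia replicate 2 or normoxia replicate 4.

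**Figure D4:**
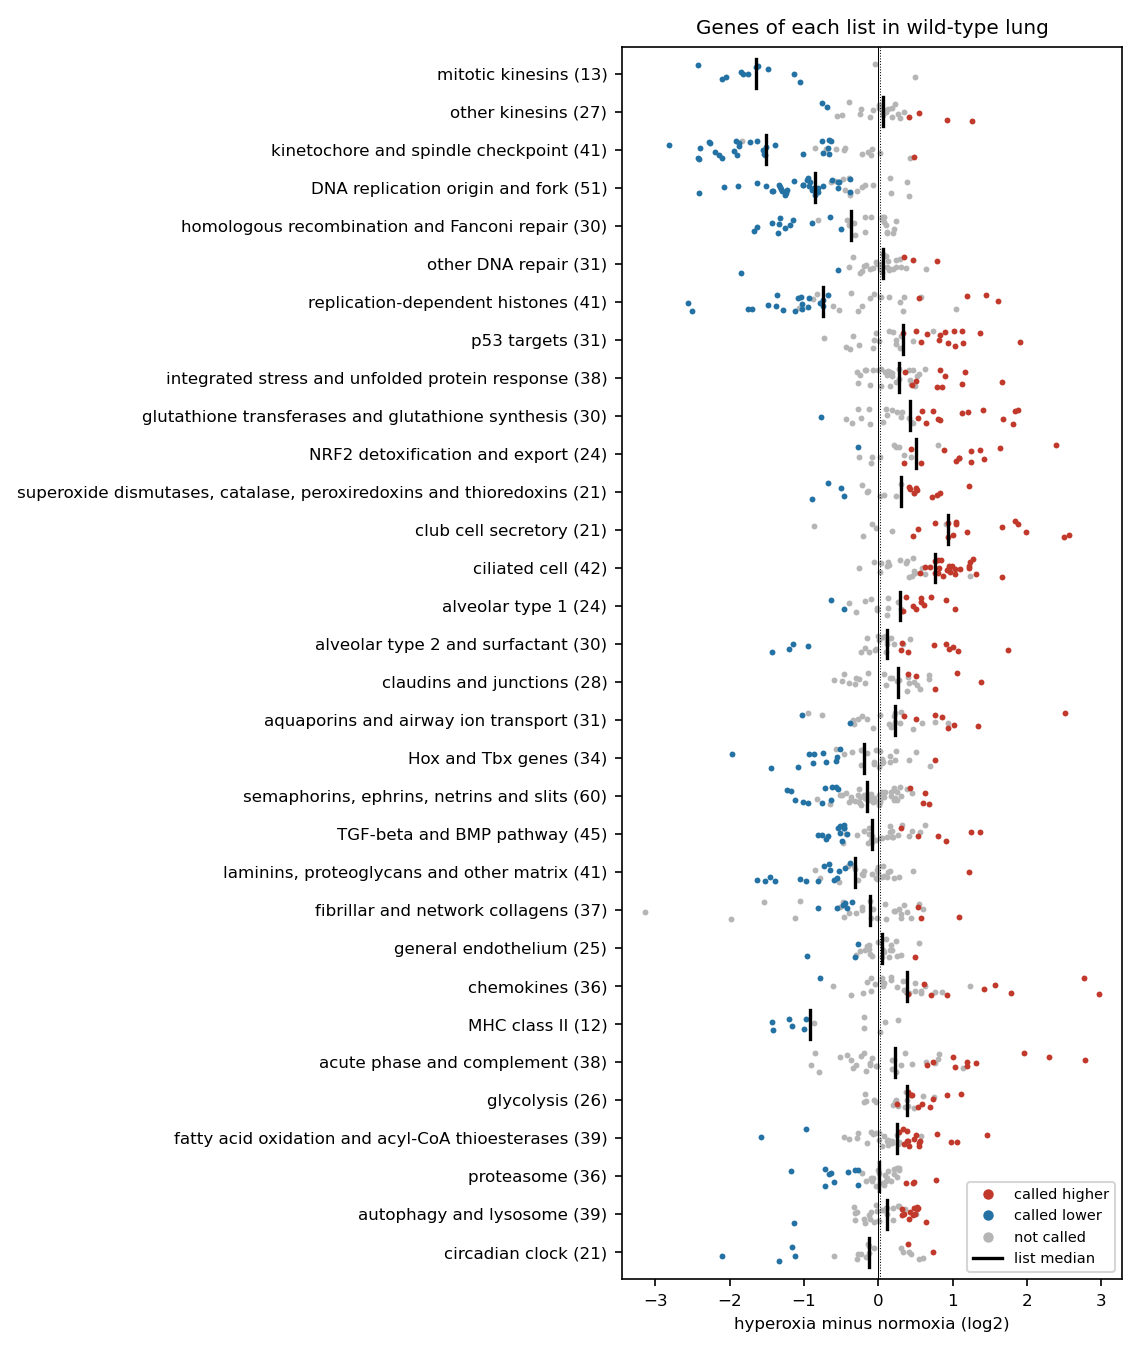
Difference between hyperoxia and normoxia (log2) for the measured genes of selected lists, 1 point per gene, with the number measured after each name, called genes in red or blue and the list median as a black bar. The dotted line is the median of all tested genes (0.03). By median, mitotic kinesins and kinetochore genes lie furthest left, and club and ciliated cell genes furthest right.

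Epithelial genes rose in several compartments, including the airway. Of 21 club cell genes, 15 rose and 0 fell (median 0.94). Scgb3a1 read 10.49, 10.97, 11.903 and 11.29 in normoxia and 13.26, 13.38, 13.23 and 12.71 in hyperoxia, and its relative Scgb3a2 rose (0.94 ± 0.16). Scgb1a1, the defining club cell product, lay close to the highest value of the whole table, 15.99, in all 8 arrays (15.98, 15.97, 15.97 and 15.96 in normoxia), where a difference cannot be read. Bpifa1 (2.49 ± 0.24) and Reg3g (2.57 ± 0.34), secreted defence proteins, rose as well. Aldh1a1 read 12.71, 12.49, 12.72 and 12.28 and 14.45, 14.45, 14.45 and 14.34, and of 21 aldehyde dehydrogenases 5 rose and 0 fell.

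Of 42 ciliated cell genes, 24 rose and 0 fell (median 0.76). Without normoxia replicate 4, 17 rose and 0 fell. They were axonemal and basal body genes such as Ccdc113 (1.21 ± 0.19), Cfap52 (1.66 ± 0.27), Tmem212 (1.23 ± 0.20) and Tekt1 (1.27 ± 0.21). By symbol, 12 of 32 Cfap genes rose and 0 fell, with Cfap70 (1.33 ± 0.21), Cfap100 (0.87 ± 0.14) and Cfap45 (1.21 ± 0.20). Foxj1, the factor that switches on motile cilia genes, stood at 0.38 ± 0.21 and did not pass (adjusted p = 0.252). Myb, which acts in early multiciliated cells, was called higher (0.82 ± 0.18), and was chosen after its value was seen.

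Alveolar epithelium was mixed. Of 30 type 2 cell genes, 9 rose and 4 fell (median 0.11). S100g gave 11.65, 11.11, 11.44 and 11.11 in normoxia and 12.83, 13.14, 13.25 and 13.08 in hyperoxia, and the cathepsin Ctsh (1.01 ± 0.13) and the surfactant lipid enzyme Lpcat1 (0.96 ± 0.12) rose. Lyz2, lysozyme of type 2 cells and macrophages, ran the other way, from 12.26, 12.199, 12.45 and 11.996 to 10.78, 11.05, 10.33 and 11.004 (-1.44 ± 0.21), with Egfl6 (-1.15 ± 0.13) and the phospholipase Pla2g1b (-0.95 ± 0.11). The surfactant protein Sftpb (0.11 ± 0.11) and the lamellar body marker Lamp3 (0.17 ± 0.10) did not pass, the transporter Abca3 stood at 0.30 ± 0.10 with its call lost in 8 of 8 fits without 1 array (adjusted p up to 0.109), and Sftpc stood at 0.00 ± 0.06 near the highest value of the table.

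Of 24 type 1 cell genes, 10 rose and 2 fell, and 7 rose and 1 fell without normoxia replicate 4. The homeodomain protein Hopx (1.04 ± 0.10), Clic3 (0.91 ± 0.15) and podoplanin Pdpn (0.61 ± 0.11) rose, but Ager, an abundant type 1 receptor, read 12.17, 12.06, 12.13 and 11.87 in normoxia and 11.81, 11.72, 12.01 and 11.98 in hyperoxia, and the groups overlapped. Genes of transitional epithelium, which marks repair of the alveolus, gave 9 rises and 0 falls in 18. They were led by Cdkn1a, Nupr1, Krt8 (1.02 ± 0.09), Krt19 (1.09 ± 0.12) and Lgals3 (1.12 ± 0.26). Cdkn1a is also in the p53 list. Transitional epithelium rises numbered 5 without hyperoxia replicate 2 or 3 or normoxia replicate 2 or 4.

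Of 33 epithelial transcription factors, 10 rose and 4 fell. Grhl2 (0.90 ± 0.12), which maintains epithelial junctions, Elf5 (0.69 ± 0.12), Tfcp2l1 (0.70 ± 0.15) and Foxp4 (0.54 ± 0.09) rose with Hopx. The Hippo coactivators Wwtr1 (-1.06 ± 0.13) and Yap1 (-0.44 ± 0.10) and the distal progenitor factor Sox9 (-0.97 ± 0.21) fell. The epithelial splicing regulators Esrp2 (0.86 ± 0.14) and Esrp1 (0.70 ± 0.11) rose. The list of 44 splicing factors held 9 falls, led by Hnrnpa1 (-1.39 ± 0.09) and Hnrnpa3 (-0.71 ± 0.09), and 5 rises (median -0.19). Splicing factor rises numbered 3 without hyperoxia replicate 3 or normoxia replicate 1.

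Of 28 claudin and junction genes, 5 rose and 0 fell, with the tight junction scaffold Tjp3 (1.06 ± 0.19), claudin Cldn3 (0.77 ± 0.15) and connexin Gjb6 (1.38 ± 0.32). Over the claudin family by symbol, 1 of 31 rose and 0 fell (median -0.03), against 10.3% of all genes that rose. But 18 of the 31 had a normoxia mean under the array median, against 6258 of all 20173 genes. Dim genes are rarely called, so the low share is not read as a trait of the family. Of 31 aquaporins and ion transport genes, 8 rose and 2 fell. The epithelial sodium channel subunits Scnn1a (0.76 ± 0.13) and Scnn1b (0.86 ± 0.16), which clear lung liquid, the sodium pump subunit Atp1b1 (1.02 ± 0.11) and the water channels Aqp3 (2.51 ± 0.39) and Aqp4 (1.34 ± 0.24) rose. The pump subunits Atp1b2 (-1.02 ± 0.22) and Atp1b3 (-0.38 ± 0.10) fell. Of 17 S100 genes, 7 rose and 0 fell, with S100a6 (1.06 ± 0.14), S100a1 (0.99 ± 0.15) and S100a14 (1.25 ± 0.21) after S100g. Solute carriers counted 49 rises and 11 falls in 341 genes. The glutamine carrier Slc1a5 (0.97 ± 0.12) had the smallest p. Solute carrier falls numbered 6 to 7 without hyperoxia replicate 2 or normoxia replicate 1 or 2.

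Of 24 basal and squamous genes, 5 rose and 1 fell, led by the protease inhibitor Spink5 (2.22 ± 0.15) and Aqp3, while the basal factor Trp63 stood at -0.27 ± 0.16. The oesophagus and skin list stood higher on the hyperoxia arrays, as given above, and its part in these genes was not tested. Muc5ac, a goblet mucin, rose (1.23 ± 0.24) from a normoxia mean of 4.62 ± 0.33 (SD, n = 4), close to the array median. The 19 goblet and mucin genes showed no common direction (median 0.04), with 11 differences above zero and 8 below. Of them 3 rose and 0 fell, and rises numbered 1 to 3 in the fits without 1 array. Calca, the neuropeptide of neuroendocrine cells and nerves, rose (2.74 ± 0.31), whereas Chga, the granule protein that defines those cells, stood at 0.74 ± 0.42, and 1 of 25 neuroendocrine genes rose and 3 fell. Neuroendocrine falls numbered 1 without hyperoxia replicate 1, 2 or 4 or normoxia replicate 4.

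Of 36 chemokines, 9 rose and 1 fell (median 0.39). Cxcl17, a mucosal chemokine, read 7.49, 6.85, 7.55 and 7.02 in normoxia and 10.28, 10.65, 10.01 and 9.86 in hyperoxia. Ccl17, which attracts T helper cells, read 5.53, 4.21, 4.15 and 4.91 and 6.804, 6.46, 6.22 and 6.44. Cxcl16 (1.42 ± 0.15), Cxcl5 (2.76 ± 0.62), a neutrophil attractant, and Cx3cl1 (0.61 ± 0.12) rose too, and Cxcl13, which organises B cells, fell (-0.78 ± 0.18). The monocyte attractant Ccl2, chosen after its value was seen, stood at 1.24 ± 0.65 and did not pass. Its normoxia arrays read 6.11, 6.14, 5.89 and 6.18 and its hyperoxia arrays 7.44, 8.61, 6.903 and 6.31, apart by a small gap and widely spread in hyperoxia.

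Among 48 cytokines and receptors, 5 rose and 4 fell. Csf2, the growth factor GM-CSF that matures alveolar macrophages, read 6.53, 6.66, 6.21 and 6.603 in normoxia and 7.51, 8.19, 7.501 and 7.62 in hyperoxia (1.203 ± 0.17), and all of its 10 features were higher. Its receptor subunit Csf2ra fell (-0.75 ± 0.13). Il34, a ligand of the macrophage receptor CSF1R, rose (1.001 ± 0.19). Il18, an inflammasome cytokine, fell from 8.85, 8.64, 8.49 and 8.38 to 7.22, 6.86, 7.14 and 7.33 (-1.45 ± 0.16), as did the receptor Tnfrsf1a (-0.83 ± 0.09).

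Of 38 acute phase and complement genes, 10 rose and 0 fell. Haptoglobin Hp (1.19 ± 0.19), ceruloplasmin Cp, the complement regulator Cd55 (0.66 ± 0.13) and the protease inhibitor Serpina3g (2.29 ± 0.50) were among them. Kininogen Kng1 rose (2.78 ± 0.39) from a normoxia mean of 4.43 ± 0.73, under the array median. Of 37 interferon-stimulated genes, 6 rose and 4 fell (median 0.02), so no common direction was seen. Of 12 MHC class II genes, 6 fell and 0 rose (median -0.92), with H2-DMa (-1.43 ± 0.18), H2-Aa (-1.41 ± 0.27) and Cd74 (-1.200 ± 0.28). None of 15 MHC class I and peptide loading genes passed by limma (0 at an adjusted p under 0.05), and 4 had an unadjusted p under 0.05.

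Of 35 macrophage genes, 4 rose and 2 fell. Marco read 9.74, 8.600, 9.11 and 8.47 in normoxia and 10.61, 10.46, 11.02 and 10.82 in hyperoxia, while Siglecf (-1.57 ± 0.28), a lectin of alveolar macrophages and eosinophils, and Ear2 fell. The pan-macrophage marker Adgre1 stood at -0.19 ± 0.29. Of 19 neutrophil genes, 0 rose and 1 fell, and the defining S100a8 (-0.33 ± 0.55) and S100a9 (0.52 ± 0.50) varied between arrays by more than the difference between groups. Mast cell genes held 3 falls, with Cpa3 at -0.84 ± 0.19, and 1 rise in 12. Of 29 T and NK cell genes, 2 rose and 3 fell, and of 16 B cell and 26 erythroid genes 0 passed by limma. At an unadjusted p under 0.05 there were 3 of the B cell and 2 of the erythroid genes. Mast cell falls numbered 1 without hyperoxia replicate 2 or 3 or normoxia replicate 1 or 2. T and NK cell falls numbered 1 without hyperoxia replicate 2 or 3 or normoxia replicate 1, 2 or 3.

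Of 26 glycolysis genes, 10 rose and 0 fell (median 0.39). The lactate dehydrogenase subunit Ldhb read 10.74, 10.52, 10.62 and 10.47 in normoxia and 11.703, 11.79, 11.56 and 11.72 in hyperoxia. Enolase Eno1 (0.69 ± 0.10), Gapdh (0.59 ± 0.09), Aldoa (0.54 ± 0.10) and the phosphoglycerate kinase Pgk1 (0.43 ± 0.08) rose as well. Of 27 targets and regulators of the hypoxia-inducible factor outside glycolysis, 1 rose and 3 fell. The rise was Hif3a (0.75 ± 0.19), and Vhl (-0.54 ± 0.15), which marks the factor for degradation, was among the falls but was not called without hyperoxia replicate 3 or normoxia replicate 1 (adjusted p up to 0.0636). Hypoxia-inducible factor falls numbered 0 to 1 without hyperoxia replicate 1, 2 or 3 or normoxia replicate 1 or 2.

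Of 39 fatty acid oxidation genes, 16 rose and 2 fell (median 0.25), and 12 rose and 2 fell without normoxia replicate 4. The peroxisomal oxidase Acox2 (1.46 ± 0.20), thiolase Acaa1a (0.38 ± 0.07) and Eci1 (0.54 ± 0.10) rose, and the muscle and fat uncoupler Ucp3 (-0.97 ± 0.17) and thioesterase Acot3 (-1.58 ± 0.29) fell. Of 35 complex I subunits, 13 rose and 3 fell, and those of complexes II to V counted 8 and 3 of 39. Ndufs7 (0.56 ± 0.08), Ndufa9 (0.54 ± 0.09) and Ndufs1 (0.43 ± 0.08) had the smallest p. Mitochondrial ribosomal protein genes counted 18 rises and 6 falls in 78, and cytosolic ones 5 and 7 in 77. Only 1 of the 78 and 2 of the 77 had a normoxia mean under the array median. In the highest of 4 level groups, 954 of 5043 genes rose and 720 fell. The ribosomal counts are therefore not read against the 10.3% and 8.74% of all genes. Complex I falls numbered 0 to 1 without hyperoxia replicate 1 or normoxia replicate 3 or 4. Complex II to V rises numbered 5 without hyperoxia replicate 1 or 2 or normoxia replicate 2 or 4. Complex II to V falls numbered 1 without hyperoxia replicate 1 or 3 or normoxia replicate 1, 3 or 4. Mitochondrial ribosomal falls numbered 2 to 3 without hyperoxia replicate 1, 2 or 3 or normoxia replicate 1, 3 or 4. Cytosolic ribosomal rises numbered 2 without hyperoxia replicate 1, 2 or 3 or normoxia replicate 1, 2, 3 or 4.

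Of 37 fatty acid and phospholipid synthesis genes, which supply surfactant, 10 rose and 3 fell. Agpat2 (0.64 ± 0.09), the desaturase Scd1 (0.90 ± 0.15) and the carboxylase Acaca (0.63 ± 0.11) rose with Lpcat1. The desaturases for polyunsaturated fatty acids, Fads1 (-0.79 ± 0.13) and Fads2 (-0.56 ± 0.13), fell. Of 25 cholesterol genes, 8 rose and 1 fell, with Sqle (0.67 ± 0.14), Idi1 (0.82 ± 0.17) and their regulator Srebf2 (0.74 ± 0.15). Cholesterol gene rises numbered 5 without hyperoxia replicate 3 or normoxia replicate 2.

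Among genes of protein turnover that passed, most of those of the lysosome were higher and most of those of the proteasome lower. Of 39 autophagy and lysosome genes, 12 rose and 1 fell. The proton pump subunits Atp6v0a1 (0.64 ± 0.09) and Atp6v1a (0.54 ± 0.09) and the membrane protein Lamp1 (0.43 ± 0.08) rose. Of 36 proteasome genes, 10 fell and 4 rose (median 0.00), with Psmb2 (-1.18 ± 0.12), Psma7 (-0.59 ± 0.08) and Psmc6 (-0.72 ± 0.10) lower and Psmd13 (0.77 ± 0.15) and Psmd4 (0.48 ± 0.09) higher. The difference between the lysosome and proteasome counts was not tested. Autophagy and lysosome rises numbered 7 without normoxia replicate 4.

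Of 21 circadian clock genes measured, 4 fell and 2 rose. Dbp, a clock output factor, read 10.09, 9.45, 9.56 and 9.18 in normoxia and 7.53, 7.57, 7.103 and 7.67 in hyperoxia, a gap of more than 1 log2 unit. Its relatives Tef (-1.16 ± 0.15) and Hlf (-1.12 ± 0.28) and the repressor Nr1d2 (-1.33 ± 0.19) fell as well. Tef read 12.55, 12.37, 12.399 and 12.54 in normoxia and 11.100, 11.56, 11.29 and 11.26 in hyperoxia. Arntl, the activator that peaks when Dbp is low, rose from 7.84, 8.12, 8.05 and 8.26 to 8.82, 8.72, 8.804 and 8.87 (0.74 ± 0.12), and its partner Clock stood at 0.40 ± 0.13, a call lost without hyperoxia replicate 2, 3 or 4 or normoxia replicate 1, 2 or 3 (adjusted p up to 0.104). The hour of collection is not given in the labels used here.

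2 large families were counted as well. Of 933 olfactory receptor genes, 7 rose and 12 fell (median -0.01). But 890 of them had a normoxia mean under the array median, where calls are sparse, so they are no background for lists with signal. Zinc finger genes, 52 of 367 of them under it, counted 18 rises and 34 falls. Olfactory receptor rises numbered 3 to 4 without hyperoxia replicate 1 or normoxia replicate 3. Olfactory receptor falls numbered 7 without normoxia replicate 4. Zinc finger rises numbered 8 to 10 without hyperoxia replicate 2 or 3 or normoxia replicate 3.

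The response was then set beside that of the pups labelled Fgf10+/-, whose 8 arrays share none with the wild type. There 2629 genes rose and 2161 fell, 23.7% of those tested. Of the wild-type rises, 1539 (73.9%) also rose there, which is 58.5% of the rises in those pups. Of the wild-type falls, 1331 (75.5%) also fell there, 61.6% of the falls in those pups. Over all tested genes, the 2 sets of differences correlated with r = 0.639. Over the genes called in wild type, which were selected for their wild-type difference, r was 0.915. Both values describe genes, which are not independent replicates.

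**Figure D5:**
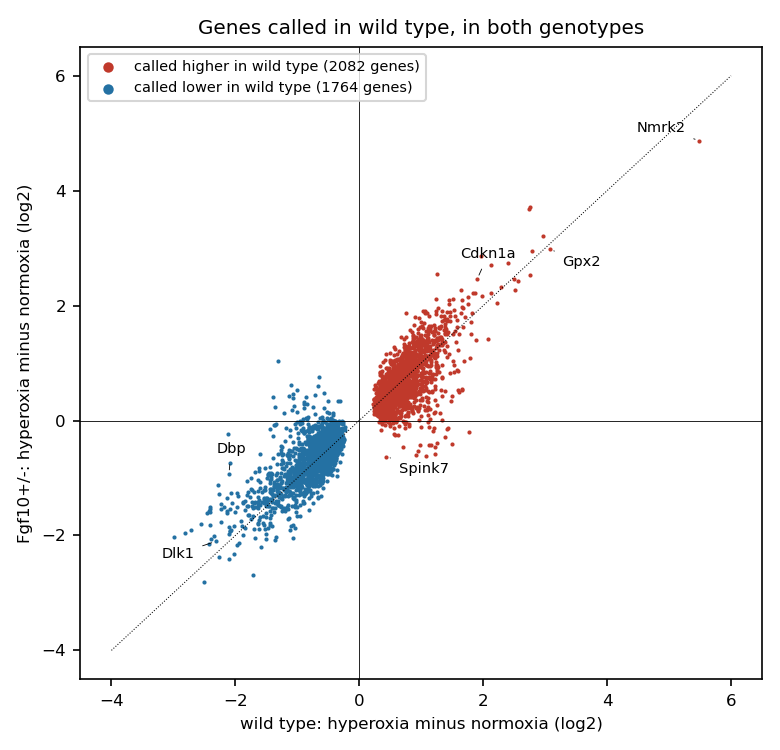
Difference between hyperoxia and normoxia (log2) in pups labelled Fgf10+/- against that in wild type, for the 2082 genes called higher (red) and 1764 called lower (blue) in wild type, with the line of equality dotted. Points lie along the line, and Dbp, at -2.10 in wild type and -0.93 in the pups labelled Fgf10+/-, lies above it.

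The difference between the 2 oxygen responses was then tested gene by gene. By limma the interaction called 0 of 20173 genes (0%), with 1335 genes at an unadjusted p under 0.05. Without hyperoxia replicate 2 it called 1 gene. The 5 genes of smallest p were Macrod1, an ADP-ribose hydrolase (difference of responses -0.74 ± 0.12, wild type minus Fgf10+/-), the peptide gene Enho (-0.78 ± 0.14), the transferrin receptor Tfr2 (-1.62 ± 0.30), Rfesd (1.67 ± 0.32) and the protease inhibitor Spink7 (1.06 ± 0.20). The adjusted p of each was 0.467 or more. Of the genes called in wild type, 4 were called the opposite way in the pups labelled Fgf10+/-. They were Spink7, which rose in wild type (0.43 ± 0.14), and Gm648, Pnpla2 and Scx, which fell. They were chosen for that pattern after their values were seen, and each call in wild type was lost in 4 to 7 of 8 fits without 1 array. For Dbp the response was -0.93 ± 0.34 in the pups labelled Fgf10+/-, against -2.104 ± 0.34 in wild type, and the test of that difference gave -1.17 ± 0.48 (limma adjusted p = 0.734).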

How the data were processed

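Lung RNA of 16 mouse pups or pools was measured on one-colour Agilent arrays. The deposited values are log2 intensities of 62976 features, with nearly identical distributions on every array. Per the labels, RNA was amplified and labelled with a single-colour kit. The scanner, background correction and normalization were not given in the sources used here. Features were named through RefSeq accessions (29050), current symbols (2061), unique synonyms (349) or as annotated (5).

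Features above the 25th percentile in at least 4 of 16 arrays were kept, and for each of 20173 genes the feature of highest mean was used. limma 3.58.1 in R 4.3.3 fitted 1 mean per group to all 16 arrays (lmFit, eBayes), with Benjamini-Hochberg adjustment over all genes and a call at an adjusted p under 0.05. The fit was tested on simulated data. Single genes with printed values were also compared by an exact two-sided permutation test over 70 arrangements. Alternatives changed the filter, the feature rule, the scaling, the variance model, the weights, the covariates, the fold minimum, the arrays included and the replicate block. The number of arrays limits the precision, and array signal gives no count depth.

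The members and lists were chosen with earlier results of these data known. Cdo1 was removed from the hedgehog list after its value was seen, since it encodes cysteine dioxygenase. Genes named are those of rank 11 to 25 by size in each direction, in the restricted rank described above. Named too are the 8 largest differences in each direction among the top 5% by level, and defining markers. Each list gives up to 5 called members per direction by smallest p. Gpx2, Nmrk2, Cdkn1a, Fgf10, Sftpc, Abca3 and Ager were always named, as were the 5 genes of smallest interaction p. A gene outside this rule is marked as a later choice where it is named. Replicate numbers were not taken to pair arrays, since the labels tie them to no shared litter or day and same-numbered arrays did not deviate together.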

Additional observations from a re-analysis of the deposited data

Results flagged for a closer look

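Values within a group of 4 arrays were examined for 1 array whose distance to the nearest of the others relative to the range of the group exceeds the critical value of Dixon for 4 samples. Of 694 such groups, for the genes named here and the tissue lists, 40 held such an array (5.8%), and chance alone gives about 1 in 20. None of these arrays was left out of the values above unless stated, and the cause was not tested. On hyperoxia replicate 1, the log2 level stood above the other 3 arrays for Kdr (12.09, others 11.72 to 11.73) and Kif3a (9.97, others 9.78 to 9.802). It stood below them for Hoxa5 (7.99, others 8.22 to 8.26), Ptger2 (6.81, others 6.98 to 7.01) and Tuba1a (13.32, others 13.502 to 13.53). On hyperoxia replicate 2, the log2 level stood above the other 3 arrays for Csf2 (8.19, others 7.501 to 7.62), Fads2 (5.93, others 5.604 to 5.64) and Tfr2 (5.16, others 4.201 to 4.33). It stood below them for Ucp3 (8.07, others 8.22 to 8.25). On hyperoxia replicate 3, the log2 level stood below the other 3 arrays for Heph (7.497, others 7.92 to 7.96), Mxd3 (3.67, others 4.77 to 4.98) and Top2a (4.97, others 6.18 to 6.38). On hyperoxia replicate 4, the log2 level stood above the other 3 arrays for Ear2 (11.82, others 11.38 to 11.43), H2-DMa (6.21, others 5.602 to 5.699) and Slit2 (9.06, others 8.704 to 8.73). It stood below them for Aldh1a1 (14.34, others 14.45 to 14.45), Gpx2 (11.08, others 11.41 to 11.45), Lamp3 (13.06, others 13.38 to 13.404), Scgb1a1 (15.89, others 15.95 to 15.95), Tfcp2l1 (8.53, others 8.85 to 8.87) and Tnfrsf1a (10.75, others 10.899 to 10.92). On normoxia replicate 1, the log2 level stood below the other 3 arrays for Sox9 (5.28, others 6.001 to 6.15). On normoxia replicate 2, the log2 level stood above the other 3 arrays for Vegfa (12.903, others 12.61 to 12.63). It stood below them for Creg1 (11.17, others 11.31 to 11.32), Plin2 (11.003, others 11.18 to 11.19), Sftpc (15.98, others 15.99 to 15.99) and the mean of the erythroid genes (7.78, others 8.38 to 8.46). On normoxia replicate 3, the log2 level stood above the other 3 arrays for Chga (5.15, others 3.65 to 3.84) and Parp2 (8.23, others 7.76 to 7.78). On normoxia replicate 4, the log2 level stood above the other 3 arrays for Hspa5 (13.68, others 12.76 to 12.79), Lum (8.93, others 7.01 to 7.305), the mean of the brown and white fat genes (5.805, others 4.49 to 4.68), the mean of the cartilage genes (8.27, others 5.08 to 5.22), the mean of the oesophagus and skin genes (5.02, others 4.81 to 4.83) and the mean of the skeletal muscle genes (7.78, others 4.96 to 5.13). It stood below them for Adgre1 (7.100, others 7.596 to 7.67), Clic3 (11.34, others 11.87 to 11.97), Nqo1 (4.58, others 4.995 to 5.07), Spry1 (10.77, others 11.28 to 11.35) and Ucp3 (8.91, others 9.25 to 9.28).

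Of 31490 array features that carry no gene name, 327 passed in a limma fit of their own, 101 higher and 226 lower. This share, 1.04%, cannot be set against the 19.1% of the named genes. The unnamed features passed no filter on dim features and were adjusted apart, whereas each named gene was read from its brightest kept feature. They enter no comparison of the report.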

How the results depend on the processing

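The count of called genes kept within 1.5 times its value, 3846, under every alternative but 1. Among the others it ran from 3078 (without hyperoxia replicate 2) to 4478 (limma with trend and robust). The exception tested against a fold minimum of 1.5, which called 227 genes, 67 higher and 160 lower. Leaving out 1 of the 8 arrays gave 3078 to 3497 calls, 1600 to 1873 higher and 1455 to 1624 lower. The interaction called 0 genes under each alternative run on it, except without 1 array, where it called 0 to 1. It could not be fitted to the wild-type arrays alone. Shifting arrays to a common 75th percentile gave 1870 higher and 1900 lower.

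Replicate numbers are shared between the groups, but hyperoxia and normoxia arrays of one number did not deviate together (correlations 0.008, -0.011, -0.010 and 0.029), and 1 of 4 hyperoxia arrays correlated best with its own number. With the replicate block the fit called 3766 genes, 2029 higher and 1737 lower.

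Some differences changed sign between settings, given as log2 differences. Adgre1, -0.1939 above, stood at -0.3260 to 0.0370 without 1 array. Cspg4, -0.0221 above, stood at 0.0051 with array weights and -0.0775 to 0.0587 without 1 array. Fgf10, 0.0561 above, stood at -0.0029 with the covariate for male or female tissue, -0.0945 with the mean of all kept features and -0.1290 to 0.1718 without 1 array. Notch2, -0.4998 above, stood at 0.1057 with the mean of all kept features. S100a8, -0.3309 above, stood at -0.7753 to 0.0057 without 1 array. Sod3, 0.0192 above, stood at -0.0033 at a common 75th percentile, -0.0120 after a further quantile normalization and -0.0828 to 0.1355 without 1 array. Trp63, -0.2661 above, stood at 0.3444 with the mean of all kept features. The cause was not tested. Of 107 list counts of 3 or more calls, 33 moved by over 1.5 times without some 1 array, given beside each of those printed above, and so did 27 of 45 counts of 1 or 2 calls. In the same 8 fits, kinetochore falls ran from 26 to 27 and ciliated cell rises from 17 to 23. Low signal limits dim genes, where the median SE was 0.38 in the lowest of 4 groups of genes by level and 0.11 among the highest.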

Other observations

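Further gene groups changed in single members. Of 20 cathepsins, the proteases of the lysosome, 6 rose and 0 fell, with Ctsz (0.49 ± 0.10) and Ctsl (0.35 ± 0.08) beside Ctsh. Of 54 serpins, 8 rose and 1 fell. Serpine2, an inhibitor of thrombin and plasminogen activators, was the fall (-1.44 ± 0.14). Of 18 genes of FGF response, 5 fell, among them Etv4 (-1.32 ± 0.28) and Spry1 (-0.86 ± 0.15), and of 19 ligands and receptors Fgfr1 fell (-0.50 ± 0.14, not called without hyperoxia replicate 3 or normoxia replicate 2, adjusted p up to 0.0667) and the secreted carrier Fgfbp1 rose (1.55 ± 0.25). Of 15 EGF family genes, the ligand Nrg1 rose (1.47 ± 0.18) and 0 fell. Cathepsin rises numbered 3 without hyperoxia replicate 2 or normoxia replicate 2. Serpin rises numbered 4 without hyperoxia replicate 1 or 2.

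Of 34 immediate-early genes, 4 rose, among them Gadd45b (0.99 ± 0.19) and Maff (0.94 ± 0.26, not called without hyperoxia replicate 1, adjusted p 0.0519), which encodes a partner of NRF2, and 0 fell (median 0.00). Lymphatic endothelial genes held 3 rises and 2 falls in 11. Eicosanoid genes held 2 rises and 3 falls in 26, with the prostaglandin receptor Ptger2 lower (-1.19 ± 0.13). Immediate-early rises numbered 2 without hyperoxia replicate 1. Eicosanoid falls numbered 1 without hyperoxia replicate 3.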
